A study of Caenorhabditis elegans with 12 samples.

Results

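The genes described here are 10 core components of the pair of TGF-β pathways that set body size and dauer entry in *C. elegans*. They are the ligands *dbl-1* and *daf-7*, the receptors *sma-6* and *daf-4*, the Smads *sma-2*, *sma-3* and *sma-4*, the Smad cofactor *sma-9*, and *lon-1* and *lon-2*, which limit body length. They were chosen by gene symbol, with earlier results of these data known. All 10 were found among the 20212 genes of the count table and among the 15048 genes with enough reads to be tested. RNA-seq was performed on whole larvae collected at the L4 stage, with 3 biological replicates in each of 4 groups, 12 libraries in all. The groups were the *mir-71(n4115)* deletion strain MT12993 raised on sodium azide, the same strain on water, wild type (N2) on azide, and N2 on water. Sodium azide blocks complex IV of the respiratory chain, and azide or water was applied to plates carrying lawns of OP50 bacteria. No source used here gives the azide dose of the RNA-seq experiment. The deletion is a single allele that removes the microRNA miR-71 from every tissue, and each library pools many animals of a synchronized egg pulse.

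In the body size pathway, DBL-1, a BMP-like ligand made largely by neurons, signals through the type I receptor SMA-6 and the type II receptor DAF-4. The receptors act on the Smads SMA-2, SMA-3 and SMA-4, which work with the zinc finger protein SMA-9 in the hypodermis and other tissues. Loss of DBL-1 signaling gives small animals and excess gives long ones. In the dauer pathway, DAF-7, released by the ASI sensory neurons in good conditions, signals through DAF-4 and another type I receptor, DAF-1, and promotes reproductive growth over the dauer stage. These are textbook roles and were not measured here.

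Gene counts summed per library to between 16828108 and 21104085 in the deletion on azide, 19255306 and 23937993 in the deletion on water, 19222887 and 22741326 in wild type on azide, and 21062880 and 22831886 in wild type on water. Poly(A) libraries do not measure mature miR-71, and the host gene *ppfr-1* served as the check of genotype. It lay between 426 and 796 CPM (counts scaled to library size with TMM factors) in the 6 libraries of the deletion and between 98.7 and 107 CPM in the 6 of wild type. The genotypes thus differ in reads of *ppfr-1* as well as in miR-71, and the part of *ppfr-1* in the results below was not tested. Among the azide-treated deletion libraries, replicate 3 was set apart from replicates 1 and 2 on the second principal component (-78.6 against -34.5 and -42.2) and on the third (45.1 against -39.2 and -35.2). For some of the genes below, the value without it or the range on leaving out any 1 library is given too. Differences between groups are log2 fold changes from edgeR's quasi-likelihood test in 1 fit of all 12 libraries, with the standard error (SE) and with p adjusted by Benjamini-Hochberg over all genes tested, and calls were made at an adjusted p below 0.05. The fit shares 1 estimate of spread per gene among the 4 groups, so SEs and intervals do not widen for a group whose libraries scatter more.

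Of the 10 genes, 6 lie on chromosome III, which holds 13.2% of the genes in the table. The genes *daf-7* (811938 to 813275), *lon-1* (5474521 to 5477814), *daf-4* (5625142 to 5631843), *sma-4* (5816277 to 5820065), *sma-3* (6861091 to 6863963, minus strand) and *sma-2* (8749964 to 8757002) lie there, in build WBcel235. The others are *sma-6* on II (6324489 to 6327140), *dbl-1* on V (6758285 to 6759939), and *lon-2* (4739352 to 4749082, minus strand) and *sma-9* (10769294 to 10782386) on X. Where no strand is named the gene is on the plus strand. No source used here states the strand setting of the counting. In the Ensembl annotation, whose spans reach beyond the positions above, exons of *sma-2* overlap exons of *aak-1* by 100 bases and of *ugtp-1* by 52 bases on the other strand. There, those of *sma-9* overlap *clc-4* by 47 bases, and those of *dbl-1* overlap T25F10.4 by 9 bases. If the counting did not use strand, reads from these stretches cannot be told apart between the genes that share them.

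Set per coding length, in the authors' FPKM, *lon-1* was the most abundant of the 10 transcripts in every group. It averaged 111 ± 11.8 FPKM in the deletion on azide, 162 ± 11.3 in the deletion on water, 66.3 ± 1.98 in wild type on azide and 167 ± 7.91 in wild type on water (SD, n = 3 each). These FPKM are not scaled by TMM factors, which were 1.03 to 1.19 in the deletion on azide and 0.92 to 0.996 in wild type. They serve to order genes within a group, and differences between groups are read from CPM and the fit below. The next 3 by mean level in each group were *sma-4*, *sma-9* and *daf-4*, which lay between 11.5 and 20.03 FPKM. In the deletion on azide the remaining 6, in the order *dbl-1*, *lon-2*, *sma-3*, *daf-7*, *sma-6* and *sma-2*, averaged 13.3 to 8.18 FPKM, and the libraries of every gene from *sma-9* down overlapped those of the next. In the deletion on water *sma-2* (11.6 FPKM), *dbl-1* (11.2 FPKM), *lon-2* (8.96 FPKM), *sma-6* (8.51 FPKM), *daf-7* (8.47 FPKM) and *sma-3* (6.20 FPKM) followed, each overlapping its neighbour. In wild type on azide the order was *lon-2*, *dbl-1*, *sma-6*, *sma-3*, *sma-2* and *daf-7*, and *daf-7*, at 2.61 ± 0.305 FPKM, lay below every library of *sma-2*. In wild type on water it was *sma-2*, *sma-6*, *lon-2*, *dbl-1*, *sma-3* and *daf-7*, with *daf-7* again lowest, at 5.49 ± 0.258 FPKM (SD, n = 3), and no overlap with *sma-3*.

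**Figure D1:**
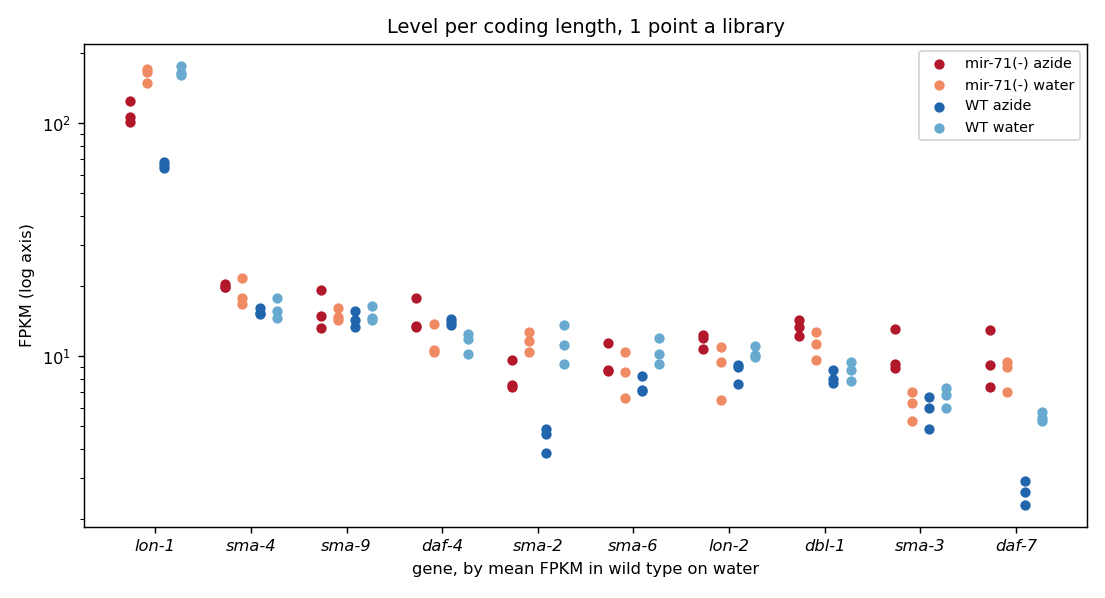
FPKM per coding length on a log axis for each of the 10 genes, with 1 point a library and the 4 groups side by side, genes ordered by their mean in wild type on water. *lon-1* lies far above the other 9 in every group, and *daf-7* in wild type on azide, at 2.30 to 2.91 FPKM, is the lowest set of points. The FPKM are not scaled by TMM factors, so the plot orders genes within a group and does not measure differences between groups.

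Most of the movement among the 10 transcripts was seen on azide, as it was over all genes tested. In wild type, azide lowered *daf-7*, *sma-6*, *sma-2* and *lon-1*, and raised none, where 27.1% of all tested genes were lower and 27.5% higher. On azide, the deletion had more *dbl-1*, *daf-7*, *sma-2*, *sma-3* and *lon-1* transcript than wild type, and less of none. Of all tested genes, 20.1% were higher and 18.7% lower in that comparison. On water the genotypes differed in none of the 10 past the threshold, where 0.744% of all genes were higher and 0.758% lower. The plot of levels by library shows the values that follow, gene by gene.

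**Figure D2:**
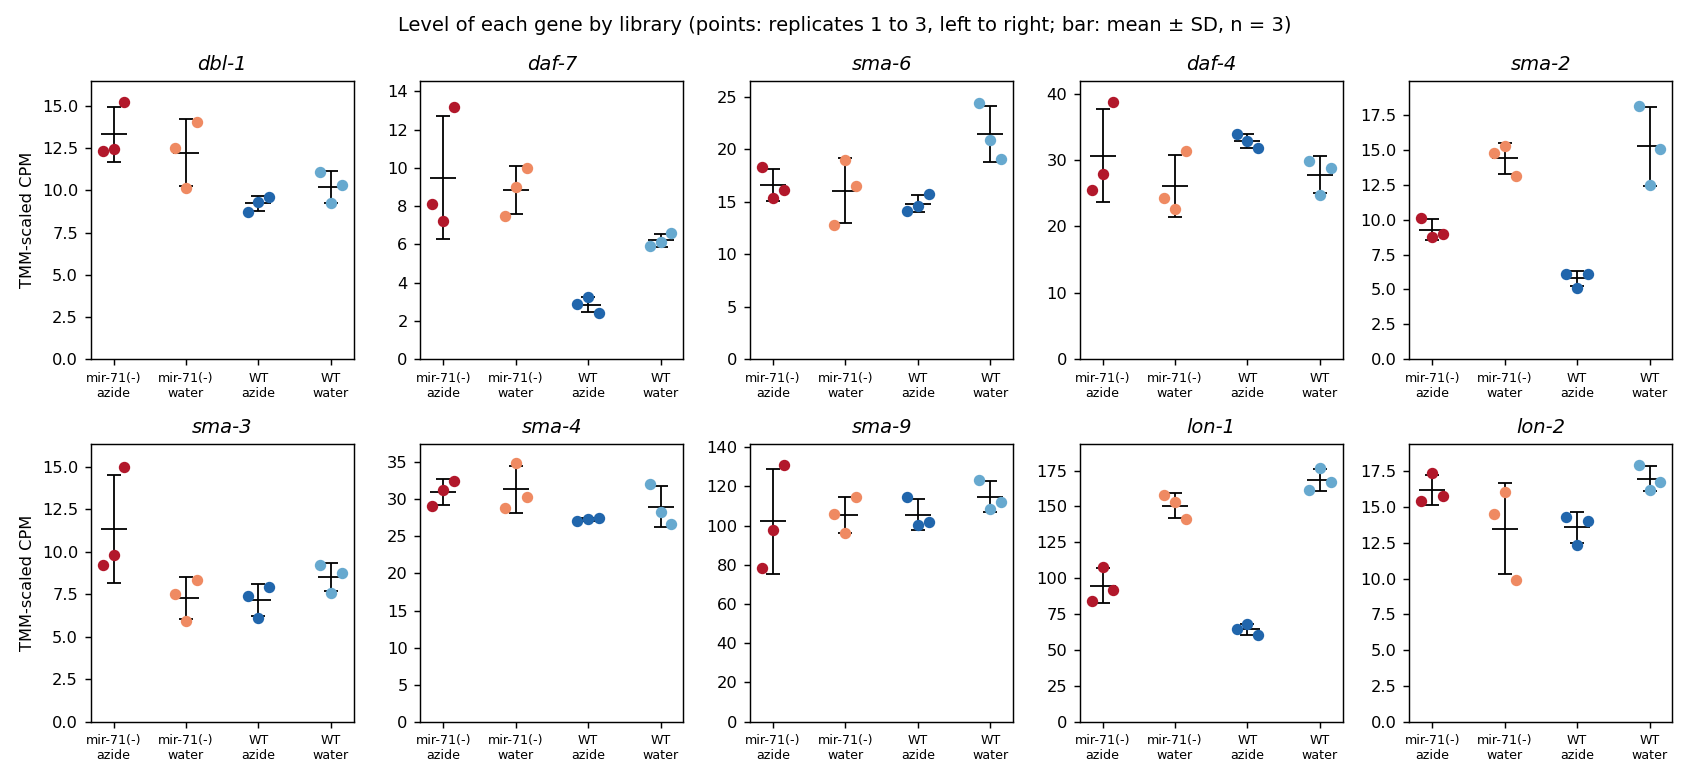
CPM scaled by TMM in each of the 12 libraries for the 10 genes, with points for replicates 1 to 3 and bars for the mean ± SD (n = 3), on linear axes from 0. *daf-7*, *sma-2* and *lon-1* are lowest in wild type on azide, where none of their 3 libraries reaches any library of another group.

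The ligand *daf-7* had the widest difference between genotypes. Its level was 8.08, 7.20 and 13.2 CPM in the deletion on azide and 7.49, 9.01 and 9.98 CPM in the deletion on water. In wild type it was 2.86, 3.26 and 2.43 CPM on azide and 5.92, 6.10 and 6.59 CPM on water. On each treatment all deletion libraries were above all wild-type libraries, and the azide libraries of wild type lay below all others. Read depth was modest, with 55 to 59 reads of *daf-7* in each azide library of wild type and 117 to 257 in the other 9.

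On azide, *daf-7* was 3.33-fold higher in the deletion than in wild type (log2 fold change of 1.74, SE 0.240, adjusted p = 0.000173 from edgeR). Without replicate 3 of the deletion on azide, which had the highest *daf-7* level, the log2 fold change was 1.40. In wild type, azide lowered *daf-7* to 2.85 ± 0.415 CPM, against 6.20 ± 0.343 CPM on water (SD, n = 3 each; log2 fold change of -1.13, SE 0.241, adjusted p = 0.00141). In the deletion the azide and water libraries overlapped, at 9.49 ± 3.22 CPM on azide and 8.83 ± 1.25 CPM on water (log2 fold change of 0.10, 95% interval -0.38 to 0.58, adjusted p = 0.771). On leaving out 1 library, this azide effect in the deletion lay between -0.23 and 0.27 and was never called. The interaction, the azide effect in the deletion minus that in wild type, was 1.23 for *daf-7* (SE 0.328, adjusted p = 0.0314). It lost its call on leaving out any 1 of 7 libraries, namely every library of wild type and replicate 1 of the deletion on water, with adjusted p up to 0.0822. On water *daf-7* did not pass the threshold (log2 fold change of 0.51, 95% interval 0.02 to 0.99, adjusted p = 0.325), although the libraries of the genotypes did not overlap.

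Whole animals were sequenced, so fewer cells of a type and less RNA per cell cannot be told apart for *daf-7* or any gene below. Of the markers for ASI, the neuron that makes DAF-7, *daf-28*, which encodes an insulin-like peptide, was at 6.96 ± 1.23 CPM in the deletion and 2.76 ± 0.138 CPM in wild type on azide (SD, n = 3 each; log2 fold change of 1.33, adjusted p = 0.000400 from edgeR). Azide lowered it in wild type, with 6.32 ± 0.219 CPM on water (log2 fold change of -1.19, adjusted p = 0.000315). The chemoreceptor gene *str-3* was at 0 counts in 11 of 12 libraries and was not tested, and the G protein gene *gpa-4* stayed under 1.03 CPM in every library and was called in no comparison. The 15 general neuron markers moved too. On azide, 10 of 15 were higher in the deletion and 0 lower, with a summed level of 497 to 685 CPM in the deletion and 422 to 442 CPM in wild type. Of these, 4 were called without replicate 3 of the deletion. In wild type, azide lowered 12 of 15 and raised 0, against 565 to 696 CPM on water. Over all tested genes, 20.1% were higher and 18.7% lower between genotypes on azide, and 27.5% and 27.1% for azide in wild type. The part of these markers in the *daf-7* result was not tested. With libraries centred on the neuron markers themselves, which moved the median log2 fold change of all genes by -0.33 between genotypes on azide and by 0.77 between treatments in wild type, *daf-7* kept its genotype difference on azide (1.33) and lost its azide call in wild type (-0.35).

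The other ligand, *dbl-1*, moved less. Its level was 12.3, 12.4 and 15.2 CPM in the deletion on azide, 12.5, 10.1 and 14.1 CPM in the deletion on water, 8.75, 9.33 and 9.62 CPM in wild type on azide, and 11.1, 9.23 and 10.3 CPM in wild type on water. On azide the libraries of the deletion lay above those of wild type, while on water they overlapped. The transcript was 1.44-fold higher in the deletion on azide (log2 fold change of 0.53, SE 0.160, adjusted p = 0.0189 from edgeR). This call did not hold when replicate 3 of the deletion on azide (0.39, adjusted p = 0.0626), replicate 1 of wild type on azide (0.49, adjusted p = 0.0681) or replicate 2 of wild type on azide (0.53, adjusted p = 0.0520) was left out. The water comparison gave 0.26 (95% interval -0.09 to 0.60), azide in wild type -0.15 (95% interval -0.49 to 0.20) and azide in the deletion 0.13 (95% interval -0.21 to 0.47), none of them called. The azide effect on *dbl-1* was not shown to differ between genotypes (0.27, adjusted p = 0.440).

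Among the receptors, *sma-6*, the type I receptor for DBL-1, fell on azide in wild type. It had 18.3, 15.3 and 16.2 CPM in the deletion on azide and 12.8, 18.9 and 16.5 CPM in the deletion on water. It had 14.1, 14.6 and 15.8 CPM in wild type on azide and 24.4, 20.8 and 19.1 CPM in wild type on water. The water libraries of wild type lay above every other library of *sma-6*. Azide lowered it by 0.53 on the log2 scale in wild type (SE 0.156, adjusted p = 0.0104 from edgeR), a call that was lost without replicate 1 of wild type on water (-0.44, adjusted p = 0.0531) and whose sign turned with libraries centred on the neuron markers (0.25), a centring that moved the median of all genes by 0.77. In the deletion the azide effect was 0.05 (95% interval -0.29 to 0.38). The genotypes did not differ past the threshold on azide (0.16, adjusted p = 0.434) or on water (-0.42, adjusted p = 0.222), where the libraries of the deletion nevertheless lay below those of wild type, and the interaction of 0.58 had an adjusted p of 0.103.

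The type II receptor *daf-4*, which serves both pathways, was called in no comparison. It lay at 25.4, 27.9 and 38.7 CPM in the deletion on azide, 24.3, 22.6 and 31.4 CPM in the deletion on water, 34.0, 32.8 and 31.8 CPM in wild type on azide, and 29.9, 24.7 and 28.9 CPM in wild type on water. Replicate 3 was the highest *daf-4* library in both groups of the deletion. Its azide effects were 0.24 in wild type (95% interval -0.11 to 0.59) and 0.23 in the deletion (95% interval -0.11 to 0.58), and its genotype differences were -0.10 on azide (95% interval -0.44 to 0.25) and -0.09 on water (95% interval -0.44 to 0.25). On leaving out 1 library, the azide effect in the deletion lay between 0.009 and 0.39. The genotype difference on azide lay between -0.33 and -0.006, and neither was called.

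The Smads did not move together. For *sma-2*, a receptor-regulated Smad, the levels were 10.1, 8.78 and 8.97 CPM in the deletion on azide and 14.8, 15.3 and 13.2 CPM in the deletion on water. In wild type they were 6.09, 5.13 and 6.14 CPM on azide and 18.2, 12.5 and 15.1 CPM on water. On azide every library of both genotypes lay below every water library, and all deletion libraries were above all wild-type libraries. Azide lowered *sma-2* by 1.40 on the log2 scale in wild type (SE 0.166, adjusted p = 1.82e-05 from edgeR) and by 0.63 in the deletion (SE 0.161, adjusted p = 0.0128). On azide it was 1.60-fold higher in the deletion (log2 fold change of 0.68, SE 0.167, adjusted p = 0.00662), and on water the difference was -0.08 (95% interval -0.42 to 0.26). These calls held on leaving out any 1 library. The interaction for *sma-2*, 0.76 (SE 0.230), had an adjusted p of 0.05004, just above the threshold. Its neighbours on the other strand, looked at after the values of *sma-2* were seen, did not fall with it in wild type. Azide raised *aak-1*, a catalytic subunit of the AMP-activated kinase, by 0.46 (adjusted p = 0.0176), and *ugtp-1* differed by 0.02 (adjusted p = 0.892).

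The partner receptor-regulated Smad, *sma-3*, had another pattern. It had 9.23, 9.79 and 14.97 CPM in the deletion on azide and 7.54, 5.94 and 8.36 CPM in the deletion on water, with 7.42, 6.13 and 7.95 CPM in wild type on azide and 9.22, 7.59 and 8.72 CPM in wild type on water. The deletion on azide held the 3 highest libraries. It was 1.58-fold higher than wild type on azide (log2 fold change of 0.66, SE 0.211, adjusted p = 0.0248 from edgeR) and 1.56-fold higher than the deletion on water (log2 fold change of 0.64, SE 0.210, adjusted p = 0.0412). Replicate 3 of the deletion on azide bore on both values for *sma-3*, which without it were 0.37 (adjusted p = 0.115) and 0.37 (adjusted p = 0.151). The genotype call was also lost without replicate 1 (0.68, adjusted p = 0.0585) or replicate 2 (0.56, adjusted p = 0.0989) of wild type on azide, and the azide call in the deletion in 9 of 12 omissions of a library. Azide in wild type gave -0.25 (95% interval -0.70 to 0.21) and the interaction 0.89 (adjusted p = 0.0724).

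Neither the common Smad *sma-4* nor the cofactor *sma-9*, which carries Schnurri-type zinc fingers, was called in any comparison. The levels of *sma-4* were 29.0, 31.3 and 32.5 CPM in the deletion on azide, 28.9, 34.9 and 30.3 CPM in the deletion on water, 27.1, 27.3 and 27.5 CPM in wild type on azide, and 32.1, 28.3 and 26.7 CPM in wild type on water. In the fit with TMM scaling its 4 group differences lay between -0.09 and 0.18 on the log2 scale, with 95% intervals that reached no further than -0.32 and 0.41. For *sma-9* the levels were 78.2, 97.5 and 130.9 CPM in the deletion on azide, 105.7, 96.0 and 114 CPM in the deletion on water, 115, 100.4 and 102 CPM in wild type on azide, and 123, 108 and 112 CPM in wild type on water. The spread of *sma-9* within the deletion on azide (SD of 26.7 CPM) was wider than in the other groups (SD of 7.89 to 9.20 CPM). Its group differences lay between -0.12 and -0.04, with intervals between -0.44 and 0.28. On leaving out 1 library, azide in the deletion gave -0.29 to 0.10 for *sma-9* and genotype on azide -0.30 to 0.09, none of them called.

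Of the length-limiting genes, *lon-1*, which encodes a secreted cysteine-rich protein of the hypodermis and is lowered by DBL-1 signaling in the textbook pathway, fell on azide in both genotypes. It had 84.0, 108 and 92.1 CPM in the deletion on azide, 158, 153 and 141.03 CPM in the deletion on water, 65.0, 67.9 and 60.5 CPM in wild type on azide, and 161, 177 and 167 CPM in wild type on water. The groups on azide were clear of the groups on water and of each other. Azide lowered *lon-1* to 64.5 ± 3.72 CPM in wild type, against 168 ± 7.83 CPM on water (SD, n = 3 each; log2 fold change of -1.39, SE 0.102, adjusted p = 4.09e-07 from edgeR). In the deletion azide gave 94.7 ± 12.2 CPM, against 151 ± 8.66 CPM on water (log2 fold change of -0.67, SE 0.1004, adjusted p = 0.000508). On azide the deletion was 1.47-fold higher than wild type (log2 fold change of 0.56, SE 0.101, adjusted p = 0.00114), while on water it was -0.16 (95% interval -0.38 to 0.05). The interaction of 0.72 (SE 0.142, adjusted p = 0.00690) was called on leaving out any of the 12 libraries, with adjusted p from 0.00272 to 0.0275. With libraries centred on the neuron, muscle or ribosomal genes it kept its sign (0.41, 0.94 and 0.55) and was not called.

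The glypican gene *lon-2*, a cell-surface proteoglycan that restrains DBL-1 signaling, was called in no comparison of the 12-library fit. It had 15.4, 17.4 and 15.8 CPM in the deletion on azide, 14.5, 16.02 and 9.93 CPM in the deletion on water, 14.3, 12.4 and 14.04 CPM in wild type on azide, and 17.9, 16.2 and 16.77 CPM in wild type on water. Replicate 3 of the deletion on water was its lowest library. In wild type the azide libraries of *lon-2* lay below the water libraries (log2 fold change of -0.32, 95% interval -0.67 to 0.03, adjusted p = 0.110). This azide effect on *lon-2* was called without replicate 3 of the deletion on water (-0.32, adjusted p = 0.0428), with upper-quartile factors (-0.47, adjusted p = 0.0280) and in a fit of wild type alone (-0.32, adjusted p = 0.0274). On azide the deletion libraries lay above those of wild type (0.25, 95% interval -0.10 to 0.61, adjusted p = 0.232). The azide effect in the deletion was 0.26 (95% interval -0.09 to 0.61), and was called with libraries centred on the neuron markers (0.75, adjusted p = 0.0232). The interaction was 0.58 (adjusted p = 0.115).

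**Figure D3:**
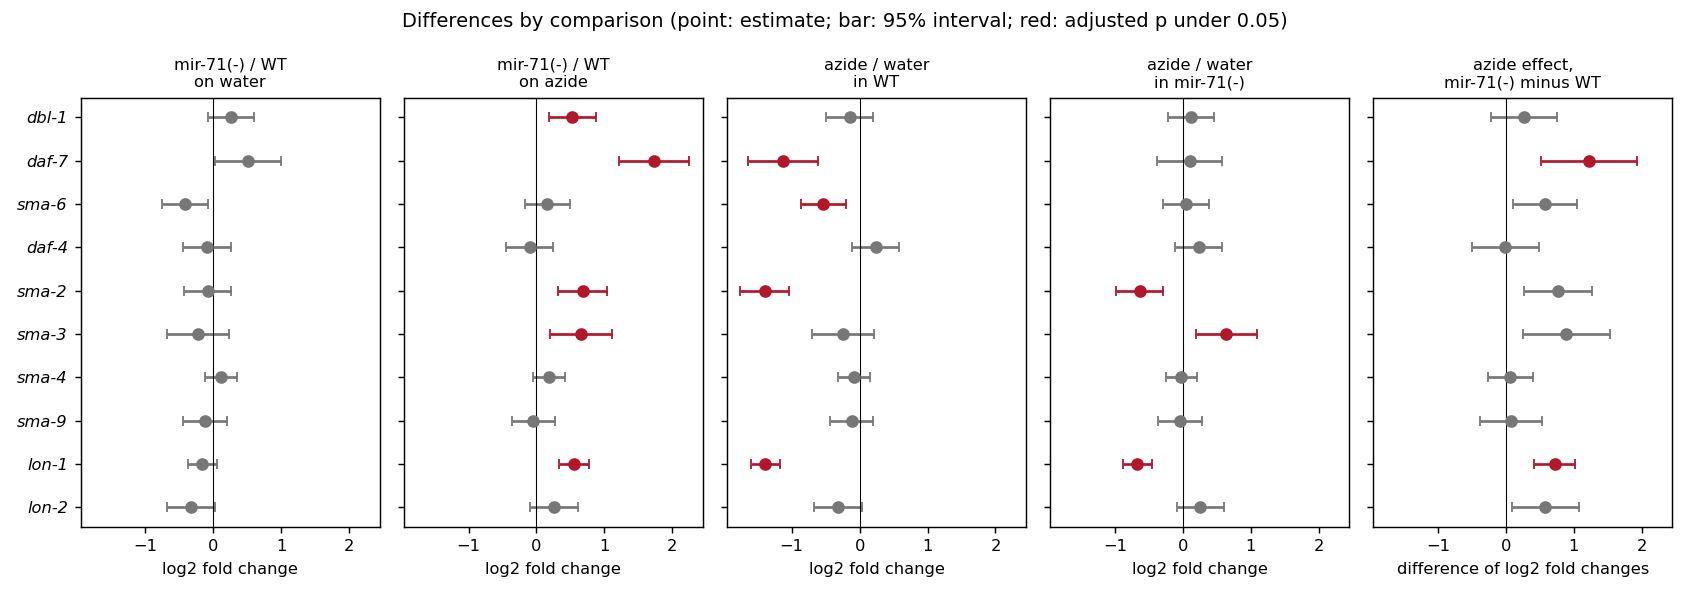
Log2 fold changes of the 10 genes in the 4 comparisons and, at the right, the difference of the azide effects between genotypes, with 95% intervals from edgeR and red where the adjusted p was under 0.05. No point is red on water, 5 are red and to the right on azide, 4 are red and to the left for azide in wild type, and the interaction is red for *daf-7* and *lon-1*.

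Read against all genes tested, the counts for the 10 genes were as follows. Between genotypes on azide, 5 of 10 were higher and 0 lower, where 20.1% of all tested genes were higher and 18.7% lower. Their median log2 fold change was 0.39, beside 0.04 over all genes. With libraries centred on the neuron or the body wall muscle markers, *daf-7* was the only one of the 5 still called. For azide in wild type, 0 of 10 were higher and 4 lower, where 27.5% of all genes were higher and 27.1% lower (median of -0.28 for the 10 and -0.05 for all), and 1 of the 4, *sma-6*, turned its sign under the centring on neuron markers. For azide in the deletion, 1 was higher and 2 lower, where 12.3% of all genes were higher and 11.6% lower (medians of 0.07 and 0.03), a share near the background. On water the counts were 0 higher and 0 lower, where 0.744% of all genes were higher and 0.758% lower. At an unadjusted p under 0.05 from edgeR, 1 was higher (*daf-7*) and 1 lower (*sma-6*) on water, and DESeq2 called 0. For the interaction, 2 were higher and 0 lower, where 6.67% and 3.80% of all genes were, and the median was 0.58 for the 10 and 0.06 for all. The genotype comparison on azide and the azide comparison in wild type share the libraries of wild type on azide, so their values do not stand apart from each other.

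Some marker lists of tissues and stages moved in the same comparisons, and others moved little. Over all tested genes, 20.1% were higher and 18.7% lower between genotypes on azide. For azide in wild type the shares were 27.5% and 27.1%. On azide, 8 of 10 hypodermis markers were higher in the deletion and 0 lower, with summed levels of 1232 to 2409 CPM in the deletion and 489 to 513 CPM in wild type. In wild type azide lowered 7 of 10 and raised 0, against 1266 to 1304 CPM on water, though with libraries centred on the neuron markers 4 were lower and 2 higher. Of 10 genes of the molting cycle, which peak before each molt, all 10 were higher in the deletion on azide (2400 to 3784 CPM, against 604 to 653 CPM in wild type) and azide lowered all 10 in wild type (3766 to 5470 CPM on water). The 10 oogenesis genes went the other way, and were lower in the deletion on azide (615 to 1812 CPM, against 3754 to 4032 CPM in wild type). Azide raised all 10 in wild type (520 to 807 CPM on water) and all 10 in the deletion (371 to 583 CPM on water). In the deletion 12.3% of all tested genes were higher and 11.6% lower. All 6 vitellogenin genes, which encode yolk proteins, were also lower in the deletion on azide (238 to 2129 CPM, against 34558 to 44389 CPM in wild type). Azide raised all 6 in wild type (4214 to 6188 CPM on water) and none was called in the deletion (2225 to 2547 CPM on water). Of 12 body wall muscle markers, 0 were higher and 1 was lower between genotypes on azide. No marker of these lists was at 0 in every library of a group. The part of developmental stage or tissue content in the results for the 10 genes was not tested.

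Another 20 genes of the TGF-β pathways, all tested, did not move in 1 direction. On azide, 6 were higher in the deletion than in wild type and 5 lower (median of 0.20, beside 0.04 for all genes), near the background of 20.1% higher and 18.7% lower over all genes tested, where centring on the neuron markers gave 0 higher and 7 lower, and leaving out replicate 3 of the deletion gave 4 higher and 7 lower. The higher ones were the ligand gene *unc-129* (0.69), which guides axons, the inhibitory Smad gene *tag-68* (0.93), the DBL-1 co-receptor gene *drag-1* (0.82), the metalloprotease gene *adt-2* (0.50) and the tetraspanin genes *tsp-14* (0.78) and *tsp-21* (0.65). The lower ones were the ligand gene *tig-3* (-2.65), the dauer pathway Smad gene *daf-3* (-0.38), the netrin receptor gene *unc-40* (-0.46), the tetraspanin gene *tsp-12* (-0.58) and the metalloprotease gene *sup-17* (-0.42). The fall of *tig-3* rests on few reads, with 0.13 ± 0.11 CPM in the deletion and 0.85 ± 0.61 CPM in wild type (SD, n = 3 each). The calls for *tig-3*, *unc-129*, *daf-3*, *tsp-12* and *tsp-21* were each lost on leaving out at least 1 library.

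In wild type, azide raised 4 of these 20 (*tig-3* by 3.02, *tsp-12* by 0.98, *sup-17* by 0.76 and *unc-40* by 0.46) and lowered 6, where 27.5% of all tested genes were higher and 27.1% lower. The lowered genes were *tsp-14* (-1.13), *tag-68* (-0.74), *drag-1* (-0.67), *adt-2* (-0.66), *daf-8* (-0.58), which encodes a dauer pathway Smad, and *bli-4* (-0.24), which encodes a proprotein convertase. Of these wild-type calls, *tig-3* was lost without replicate 1 of wild type on azide (2.27, adjusted p = 0.0650), *drag-1* on leaving out either of 2 libraries (replicate 1 on water or replicate 2 on azide) and *bli-4* on leaving out any of 4 (replicates 1 and 2 on water, 1 and 3 on azide). Under the centring on neuron markers 13 were higher and 0 lower. In the deletion, azide raised *mab-31* (0.36) and *sup-17* (0.44) and lowered none, where 12.3% of all tested genes were higher and 11.6% lower. Each call was lost on leaving out either of 2 libraries of the deletion, replicate 1 on water or replicate 3 on azide for *mab-31*, and replicate 1 on water or replicate 1 on azide for *sup-17*. On water the genotypes differed in none of the 20. The azide effect differed between genotypes for *adt-2* (0.67, adjusted p = 0.00731 from edgeR) and *tsp-14* (0.82, adjusted p = 0.0114), where 6.67% of all tested genes were higher and 3.80% lower. The remaining dauer pathway genes *daf-1*, *daf-14* and *daf-5*, which encode the type I receptor, a Smad and a Sno/Ski protein, were called in no comparison, and neither were *tig-2*, *sma-10* and *crm-1*.

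**Figure D4:**
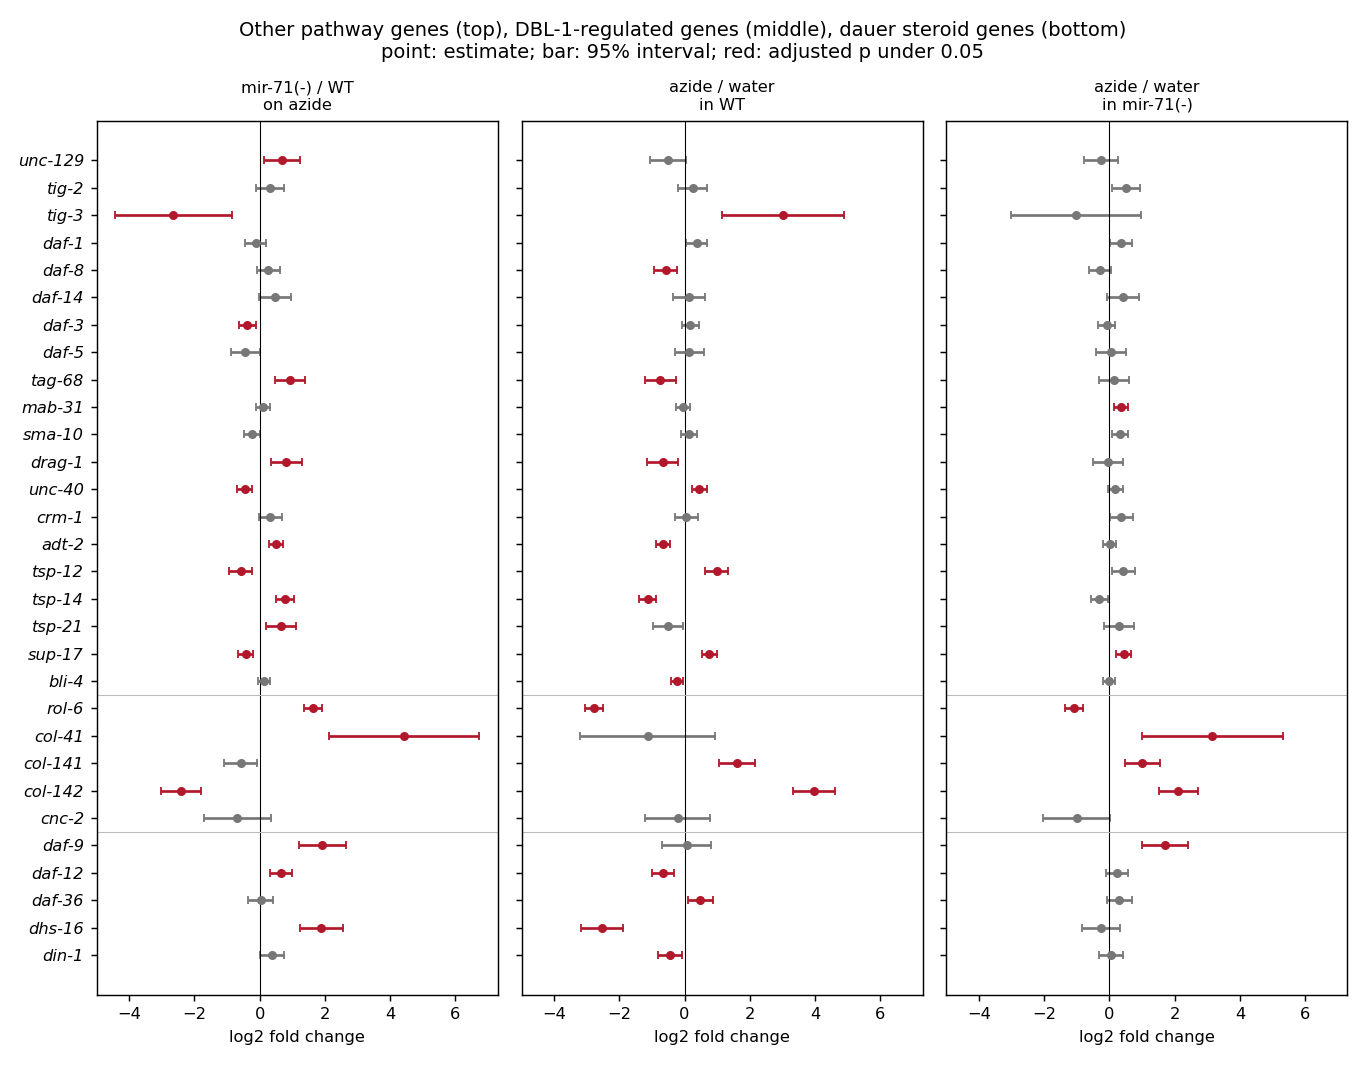
Log2 fold changes with 95% intervals from edgeR in 3 comparisons for 20 other pathway genes (top), 5 genes regulated by DBL-1 (middle) and 5 genes of the steroid hormone branch of the dauer decision (bottom), red where the adjusted p was under 0.05. The top block holds red points on both sides of 0 in the first 2 panels, and the collagen genes *col-41* (4.43 at the left and 3.16 at the right) and *col-142* (3.96 in the middle) lie farthest from 0.

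Of 5 genes known as regulated by DBL-1 signaling, the cuticle collagen gene *rol-6* followed the groups closely. It averaged 333 ± 63.9 CPM in the deletion on azide, 709 ± 63.8 CPM in the deletion on water, 108 ± 5.76 CPM in wild type on azide and 737 ± 29.3 CPM in wild type on water (SD, n = 3 each). It was 3.09-fold higher in the deletion on azide (log2 fold change of 1.63, adjusted p = 3.42e-06 from edgeR), and azide lowered it by 2.78 in wild type and by 1.09 in the deletion. The collagen gene *col-142* went the other way, at 222 ± 99.6 CPM in the deletion and 1180 ± 55.7 CPM in wild type on azide (log2 fold change of -2.41, adjusted p = 0.000107), and azide raised it by 3.96 in wild type and by 2.11 in the deletion. Azide raised *col-141* by 1.61 in wild type and by 1.01 in the deletion. The value of *col-41* in the deletion on azide was set by replicate 3, at 995 CPM, beside 80.8 and 101 CPM in the others. It was called higher there than in wild type (4.43, adjusted p = 0.00872) and higher than on water (3.16, adjusted p = 0.0410). Without that library the first was 2.29 (adjusted p = 0.00918) and the second 1.02 (adjusted p = 0.157), and the second lost its call in 10 of 12 omissions of a library. The antimicrobial peptide gene *cnc-2* was called in no comparison. On water none of the 5 was called.

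In the steroid hormone branch of the dauer decision, 3 of 5 genes were higher in the azide-treated deletion than in wild type and 0 lower, where 20.1% and 18.7% of all tested genes were. The cytochrome P450 gene *daf-9*, whose product makes dafachronic acid, averaged 13.5 ± 6.75 CPM in the deletion and 3.55 ± 0.811 CPM in wild type (SD, n = 3 each; log2 fold change of 1.92, adjusted p = 0.000876 from edgeR). The dehydrogenase gene *dhs-16* averaged 3.16 ± 0.169 CPM and 0.845 ± 0.367 CPM in the same groups (1.88, adjusted p = 0.000542), and the nuclear receptor gene *daf-12* averaged 30.5 ± 7.82 CPM and 19.2 ± 2.32 CPM (0.66, adjusted p = 0.00553). On leaving out 1 library these differences lay between 1.42 and 2.19 for *daf-9*, 1.59 and 2.23 for *dhs-16*, and 0.42 and 0.80 for *daf-12*. In wild type azide lowered *dhs-16* (-2.53), *daf-12* (-0.66) and the corepressor gene *din-1* (-0.45) and raised the oxygenase gene *daf-36* (0.49), where 27.1% of all tested genes were lower and 27.5% higher. Under the centring on neuron markers *daf-12* (0.10) and *din-1* (0.32) turned their sign. The *din-1* call was lost in 7 of 12 omissions of a library (each of wild type and replicate 1 of the deletion on water, adjusted p up to 0.112) and the *daf-36* call in 4 (replicates 1 and 3 of wild type on water and on azide, adjusted p up to 0.155). In the deletion azide raised *daf-9* (1.71) and lowered none, where 12.3% of all tested genes were higher and 11.6% lower. On water none of the 5 differed past the threshold.

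The genes whose log2 CPM followed that of a member most closely over the 12 libraries were sought for *dbl-1*, *daf-7* and *sma-3* among 13363 tested genes with a mean of at least 1 CPM. For *daf-7* they were *mxt-1* (Pearson's r of 0.97), C53C9.2 (0.97) and the neuropeptide gene *flp-11* (0.96). For *dbl-1* they were *myo-5* (0.95), *tnt-4* (0.93) and *kvs-5* (0.92), and for *sma-3* they were C09F5.1, *ace-2* and *sup-37* (0.93 each). These are descriptions, since the 12 libraries share 4 groups, and the differences between groups and the library scaling enter every such value. Between members, the highest r was 0.93, for *sma-2* with *lon-1*, followed by 0.80 for *dbl-1* with *daf-7* and 0.71 for *dbl-1* with *sma-3*.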

How the data were processed

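The data are gene-level RNA-seq counts of whole *C. elegans* larvae. Groups and replicate numbers were taken from the sample labels. By the paper's methods, the authors trimmed reads with cutadapt 1.9.1, aligned them with HISAT2 2.0.1 to WBcel235 and counted them per gene with HTSeq 0.6.1, then tested with DESeq2 (no version is stated in the sources used here). The deposited counts are raw whole numbers, and the deposited FPKM are the count divided by the listed gene size and the library total (100% of 161352 values checked matched within 0.01). That size is a coding length, since 95.4% of sizes are multiples of 3.

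Counts of all 12 libraries were fitted in edgeR 4.0.16 (R 4.3.3, limma 3.58.1) with a mean per group, TMM scaling and quasi-likelihood tests, 2-sided. A gene was kept when at least 3 libraries reached 10 counts at the median depth and its total reached 15, which left 15048 genes. Levels are TMM-scaled CPM, and likeness used log2 CPM with a prior count of 1. The fit was tested on simulated data. No 2 libraries were identical. Intervals are at 95%. Gene positions are those listed with the counts, and each lies within a longer span of the same gene in the Ensembl annotation of WBcel235. Exon overlaps were taken from that annotation. Figures were drawn with matplotlib 3.10.9.

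The 10 genes, the lists and the rule for named genes were chosen with earlier results of these data known. All 10 are named in every comparison, other genes only from the lists of other pathway, DBL-1-regulated, steroid and ASI genes, and markers by counts and sums. Of 16 lists, those for pharynx, intestine, germline and sperm gave, on azide, 5 of 5, 1 of 8, 0 of 8 and 2 of 6 genes higher in the deletion and 0, 0, 3 and 0 lower, and 0 of 41 ribosomal genes were called. Over all tested genes 20.1% were higher and 18.7% lower. The pharynx markers summed to 316 to 620 CPM in the deletion on azide and 76.4 to 90.9 CPM in wild type on azide. Alternatives were other scalings, DESeq2 1.42.0, no filter, fits on 2 groups, a replicate block and leaving out each library. Replicate numbers were checked for pairing and were not used to pair samples. Sequences, and a search of 3′ UTRs for miR-71 sites, were not analysed here.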

Additional observations from a re-analysis of the deposited data

Results flagged for a closer look

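The azide effect differed between the deletion and wild type, by the interaction test in edgeR at an adjusted p under 0.05, for 2 of the 10 genes and for 7 of the other listed genes. Over all tested genes, 6.67% were called higher and 3.80% lower by this test. As differences of log2 fold changes, the deletion minus wild type, the values were 1.23 for *daf-7* and 0.72 for *lon-1*, 0.67 for *adt-2* and 0.82 for *tsp-14* among the other pathway genes, 1.69 for *rol-6* and -1.85 for *col-142* among the genes regulated by DBL-1, and 1.64 for *daf-9*, 0.89 for *daf-12* and 2.27 for *dhs-16* in the steroid branch. The calls for *daf-7*, *daf-9* and *daf-12* were each lost on leaving out at least 1 library of wild type. With libraries centred on the neuron, muscle or ribosomal genes, *rol-6*, *col-142* and *dhs-16* were still called and the other 6 were not. None of these 9 values turned its sign under the alternatives tried.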

How the results depend on the processing

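Of the called values of the 10 genes, 107 of 136 kept their direction and call under other settings, 28 kept the direction and lost the call, and 1 turned its sign, while 145 of 168 kept both on leaving out 1 library and 23 lost the call. Of the values not called, 12 of 344 gained a call under other settings and 3 gained one with the opposite sign, and 4 of 432 gained a call on leaving out 1 library. The remaining 329 and 428 were called in neither fit, and 33 and 21 of them changed sign. Scaling mattered most, and the cause was not tested. The centring on neuron markers moved the median of all genes by 0.77 and 0.47 for azide in wild type and in the deletion, by -0.33 for genotype on azide and by -0.30 for the interaction, the centring on ribosomal genes by 0.34 on water, and that on muscle markers by -0.27 on water.

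Under the centring on neuron markers, 1 gene was higher between genotypes on azide, 4 were higher and 2 lower for azide in wild type, 3 higher and 0 lower for azide in the deletion, and 0 higher for the interaction. It turned the sign of azide in wild type for *dbl-1* (0.64), *sma-6* (0.25), *sma-4* (0.70), *sma-9* (0.66), without a call in either fit for *sma-3* (0.53) and *lon-2* (0.45), and for *daf-8* (0.21), *tag-68* (0.044), *drag-1* (0.10), *adt-2* (0.10), *bli-4* (0.54), *daf-12* (0.10) and *din-1* (0.32). Under the centring on muscle markers, 1 was higher between genotypes on azide, 0 were higher and 0 lower for azide in the deletion, and 0 higher for the interaction. Under the centring on ribosomal genes, 1 was higher on water (*daf-7*, 0.84), 1 higher for azide in wild type, 1 lower for azide in the deletion and 0 higher for the interaction. DESeq2 or edgeR on the 2 groups alone gave 1 higher for azide in wild type (*daf-4*, 0.27 and 0.25) and 0 higher for azide in the deletion, as did DESeq2 size factors and upper-quartile factors for azide in the deletion (0 higher). Upper-quartile factors gave 6 higher between genotypes on azide, with *sma-4* added.

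Over all genes tested, the shares higher and lower for genotype on azide were 8.08% and 19.7% with neuron, 8.35% and 4.51% with muscle, 24% and 6.15% with ribosomal centring and 25.6% and 12.2% with upper-quartile factors. For azide in wild type they were 53.7% and 7.83% with neuron centring, 33.1% and 18% with ribosomal centring and 22.3% and 33.6% with upper-quartile factors. For azide in the deletion they were 28.1% and 2.69% with neuron and 7.44% and 2.93% with muscle centring, and for the interaction 3.79% and 0.346% with muscle centring, 8.29% and 2.28% with upper-quartile factors and 8.43% and 8.97% with DESeq2. In edgeR fits of the 2 groups alone, azide in the deletion gave 5.35% and 6.22%, against 12.3% and 11.6% with all 12 libraries. In wild type it gave 32.1% and 31.9%, against 27.5% and 27.1%. On water they were 7.72% and 0.339% with ribosomal centring, 0.106% and 0.904% with muscle centring, and 2.16% and 1.89% with DESeq2.

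On leaving out 1 library, members higher between genotypes on azide numbered 3 to 5, members lower for azide in wild type 3 to 5, members higher for azide in the deletion 0 to 1 and members higher for the interaction 1 to 3. The replicate numbers did not pair the samples (18 same-number pairs had r from -0.11 to 0.17, median 0.02), and with a replicate block the counts of members called were 5 higher between genotypes on azide, 4 lower for azide in wild type, 1 higher and 2 lower for azide in the deletion and 2 higher for the interaction, as without it. Among the other listed genes the block ended the calls for *unc-129* between genotypes on azide (0.70), *daf-36* for azide in wild type (0.49), *col-41* for azide in the deletion (2.61) and *daf-9* for the interaction (1.56). The search of 3′ UTRs was not run. Among the 10 genes *daf-7* in wild type on azide had 55 to 59 reads a library, which limits the precision of its level.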
